A study of Mus musculus with 12 samples.

Results

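The cytosolic ribosomal protein genes were described in 12 RNA sequencing libraries made from HM1 cells, a line of mouse ovarian cancer, and from their tumors. Members were chosen by gene name (the Rpl and Rps names with a number, Rplp0 to Rplp2 and Rpsa, without the names that mark a pseudogene) and by a mean of at least 1 TPM in at least 1 of 4 groups. TPM is the share of all transcripts that a gene holds after correction for gene length, scaled to a library total of 1000000. The rule found 84 members among 55416 identifiers shared by all tables, 50 of the large subunit and 34 of the small subunit. Another 4 names fitted but missed the level, and 82 members reached 1 TPM in every group. Rps4l and Rpl39l reached it in tumors and were at or near 0 in culture, so they had to differ between tumors and culture.

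The 4 groups had 3 libraries each. HM1 cells with a control short hairpin RNA (shControl, genotype given as wild type) and HM1 cells with a hairpin against St3gal3 (shST3GAL3, ST3GAL3 knockdown) were profiled in culture, and tumor tissue of each line was profiled as well. St3gal3 encodes an enzyme that adds sialic acid to glycans. As a check of the hairpin, its level in culture was 11.7 ± 1.82 TPM (SD, n = 3) with the control and 1.53 ± 0.290 TPM with the knockdown, and in tumors 14.9 ± 0.794 and 6.30 ± 0.848 TPM in that order. The hairpin sequence, clonal origin, host strain, host age, tumor site and time of collection are not given in the sources used here. Nor do the labels tell whether samples of 1 group are separate cultures or animals. The p-values therefore cover only the spread among the samples given, and that spread could be technical. Depth is unknown, because TPM keeps none.

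The ribosome is built of a small subunit, which decodes the message, and a large subunit, which joins amino acids, and each subunit holds ribosomal RNA and 1 copy of most of its proteins. Cells make these proteins in matched amounts, and surplus protein is degraded, so the messages are among the most abundant of growing cells. Most of these messages start with a cytosine and a run of pyrimidines, the terminal oligopyrimidine (TOP) tract, through which mTORC1 and the RNA-binding protein Larp1 control their translation. Growing tumor cells are known for high ribosome production. The mammalian genome also holds many processed copies of these genes, which arose by reverse transcription of the messages.

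The start of the gene is shown for members that were higher, lower or not called in the same direction in tumors against culture, since the TOP tract is what these messages are known to share. Each line gives 30 bases of the gene strand from RefSeq (build GRCm38.p6), 10 before and 20 from the listed start, with the tract in capitals. Capitals start at a C within 5 bases of the listed start, so a run of pyrimidines that begins earlier, as in Rpl7a, is marked only in part. The members with the 3 longest marked tracts of each class are printed, with Rps27 added for its large change. A ranking by whole runs could differ.
Rpl13a, chr7:45128726-45128755, minus strand: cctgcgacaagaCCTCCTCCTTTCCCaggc
Rpl35a, chr16:33056472-33056501, plus strand: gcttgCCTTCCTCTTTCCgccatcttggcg
Rps10, chr17:27635225-27635254, minus strand: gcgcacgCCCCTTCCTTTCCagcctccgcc
Rps27, chr3:90213629-90213658, minus strand: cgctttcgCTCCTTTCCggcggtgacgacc
Rpl27a, chr7:109519185-109519214, plus strand: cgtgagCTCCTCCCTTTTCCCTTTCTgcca
Rpl15, chr14:18270967-18270996, minus strand: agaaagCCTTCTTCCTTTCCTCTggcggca
Rpl35, chr2:39005112-39005141, minus strand: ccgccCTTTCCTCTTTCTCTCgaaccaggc
Rpl7a, chr2:26910797-26910826, plus strand: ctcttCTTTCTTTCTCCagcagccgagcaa
Rpl18, chr7:45718061-45718090, plus strand: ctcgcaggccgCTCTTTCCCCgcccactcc
Rps6, chr4:86857348-86857377, minus strand: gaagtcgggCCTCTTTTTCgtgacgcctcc

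Here Rpl13a, Rpl35a, Rps10 and Rps27 were called higher in both tumor comparisons, Rpl27a, Rpl15 and Rpl35 were called lower in both, and Rpl7a, Rpl18 and Rps6 were not called in both. These classes rest on the member alone: with the near-identical copies described further down added, Rpl27a and Rpl15 were called higher in both comparisons, as was Rps6, and Rpl18 was called lower in both. A promoter was listed for 62 of the 84 members. A tract, taken as a C followed by at least 4 bases that are each C or T on the gene strand, with that C within 5 bases of the listed start, was found in 29 of them (46.8%). It was found in 5718 of all 27025 genes with a listed promoter (21.2%) and in 17 of 69 genes for mitochondrial ribosomal proteins (24.6%). By the direction in tumors, it was found in 8 of 19 members called higher in both comparisons (42.1%), 8 of 16 called lower in both (50%) and 13 of the other 27 (48.1%). With copies added, which turned some members to the other class, it was found in 12 of 24 called higher in both (50%), 4 of 10 called lower (40%) and 13 of the other 28 (46.4%). These are matches of letters at starts listed by RefSeq, and a start listed a few bases away hides the tract.

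Together the members held 18.7 to 20.8% of all TPM in culture libraries and 19.7 to 20.7% in tumor libraries. The means were 19.5 ± 0.864% in control culture, 19.6 ± 1.06% in knockdown culture, 20.1 ± 0.542% in control tumors and 20.1 ± 0.480% in knockdown tumors (SD, n = 3 each). The 4 ranges overlap. Of the 50 most abundant genes of a library, 24 to 27 were members, and 70 members had a mean of at least 1000 TPM over the 12 libraries.

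The subunits did not keep their proportion. Small subunit members summed to 7.42 to 8.36% of all TPM in culture and 8.49 to 8.89% in tumors, while large subunit members summed to 11.2 to 12.4% and 11.2 to 11.9%. The ratio of large to small subunit levels was 1.495, 1.520 and 1.496 in control culture and 1.508, 1.513 and 1.486 in knockdown culture. It was 1.333, 1.317 and 1.310 in control tumors and 1.344, 1.346 and 1.316 in knockdown tumors. All 6 culture libraries lay above all 6 tumor libraries, and control and knockdown overlapped within each tissue. Over the 42 members whose copies hold under 1% of their joint level, described further down, the ratio was 1.47 to 1.51 in culture and 1.19 to 1.24 in tumors. With the copies of all members added, the ratios came closer, at 1.375 to 1.405 in culture and 1.264 to 1.305 in tumors. Without Rplp1, the most abundant member, they were 1.36 to 1.39 and 1.25 to 1.28, and without Rplp1 and Rps27 they were 1.42 to 1.446 and 1.341 to 1.375. The mean ratio in culture exceeded that in tumors by 0.184 with the control hairpin and 0.167 with the knockdown over all members. Without these 2 genes it did so by 0.0857 and 0.0717, and over the 42 members by 0.276 and 0.279. The 2 genes were picked after their values were seen, so a smaller gap without them was bound to follow. The ratio over members has no test here.

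**Figure D1:**
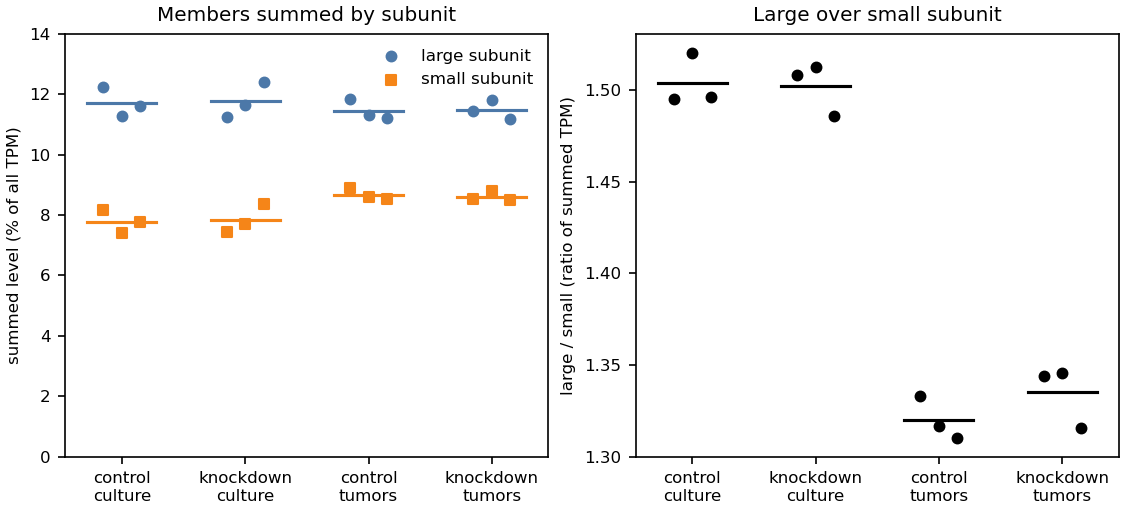
Summed level of the large and small subunit members as a percent of all TPM (left) and the ratio of large to small (right, axis not from 0) for each of the 12 libraries, with points for libraries and lines for group means. The ratio is 1.49 to 1.52 in culture and 1.31 to 1.35 in tumors.

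Among the highest mean levels over the 12 libraries were those of Rplp1 and Rpl13a, at 7797 and 5101 TPM. Rplp1 encodes an acidic protein of the stalk that recruits elongation factors. The 3 lowest members were Rpl39l, Rps4l and Rpl7l1, paralogs with means of 1.87, 4.22 and 79.2 TPM. Names below the level were Rpl10l, Rpl3l, Rpl6l and Rpl32l, of which no library held more than 1.15 TPM. Rpl10l and Rpl3l are known from testis and from muscle, in that order, and Rpl3l was at 0 to 0.280 TPM.

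In culture, knockdown and control cells were compared gene by gene. No member passed the test (0 of 82, with 4 of 13492 genes called over the whole table, 0.0296%). The test was limma on log2(TPM + 1), with a Benjamini-Hochberg adjusted p below 0.05 over all genes tested. With an unadjusted p below 0.05 there was 1 member, against 3.42% of all genes. The median change was 0.01 on the log2 scale for members and 0.02 for all genes, and 81 of 82 members lay within 0.25 of 0 on that scale. The median standard error of a member's change was 0.06.

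The members of smallest p in culture were Rps12l1, Rpl30 and Rps29. Rps12l1 stood at 160, 162 and 123.2 TPM in control and 170, 200 and 188 TPM in knockdown cells, without overlap. Its log2 difference was 0.33 ± 0.12 (SE) with an adjusted p of 0.9999 in limma. Its transcript holds all coding bases of Rps12, at 4281 to 5007 TPM in the same libraries, so its level rests on how reads are divided between the pair. Rpl30, which binds a kink-turn in ribosomal RNA, differed by 0.09 ± 0.05, and Rps29, a zinc-binding protein of the small subunit head, by 0.11 ± 0.07.

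In tumors no member passed either (0 of 84, with 1.51% of 14915 genes called). An unadjusted p below 0.05 was reached by 16 of 84 members (19%) and by 18.7% of all genes. The groups did not overlap for 21 members (25%), 17 of them lower and 4 higher in knockdown tumors, against 24.7% of all genes (14.9% lower and 9.81% higher). With both directions together, members thus met these looser marks about as often as all genes. By direction, the groups did not overlap for 20.2% of members lower and 4.76% higher, more and less often than for all genes. That difference by direction was not tested. Their median log2 change was -0.01, beside -0.05 for all genes, and 83 of 84 lay within 0.25 of 0.

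The members of smallest p in tumors were Rpl39l, Rpl3 and Rps6. Rpl39l encodes a paralog of Rpl39, a small protein of the peptide exit tunnel, and is known for its expression in testis. It measured 2.22, 1.33 and 0.900 TPM in tumors with the control hairpin, against 3.44, 7.69 and 6.53 TPM in those with the knockdown. Every knockdown tumor was higher than every control tumor, yet the log2 difference of 1.45 ± 0.30 had an adjusted p of 0.0746 in limma. In culture it was listed at 0 TPM in 4 libraries, and the knockdown replicates 1 and 3 had 0.180 and 0.150 TPM. Markers of germ cells summed to at most 0.370 TPM in any library.

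Rpl3, a core protein next to the peptidyl transferase center, was at 2212, 2130 and 2185 TPM with the control hairpin and at 1911, 1925 and 1944 TPM with the knockdown. The groups did not overlap, and the log2 difference was -0.18 ± 0.04 with an adjusted p of 0.0894. Rps6, the protein that S6 kinase phosphorylates, stood at 2697, 2539 and 2588 against 2337, 2316 and 2268 TPM, a log2 difference of -0.18 ± 0.04 with an adjusted p of 0.101. With its copies added the difference of Rps6 was -0.11, with an adjusted p of 0.303. Rpl10, a late-joining protein of the large subunit, differed by -0.22 ± 0.05 with an adjusted p of 0.102. These p-values are from the limma fit of the 6 tumor libraries.

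Rplp0, the base of the stalk, was at 3495 to 3761 TPM with the control hairpin and 3085 to 3468 TPM with the knockdown, without overlap. Rpsa, also known as a laminin receptor, was at 2175 to 2440 and 2054 to 2183 TPM, and its groups overlapped. Rpl11, which with Rpl5 and the small 5S RNA binds Mdm2, differed by -0.13 ± 0.05 with an adjusted p of 0.2155, and Rpl5 by 0.03 ± 0.06. Rplp1 and Rplp2 differed by 0.03 ± 0.04 and -0.09 ± 0.04.

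**Figure D2:**
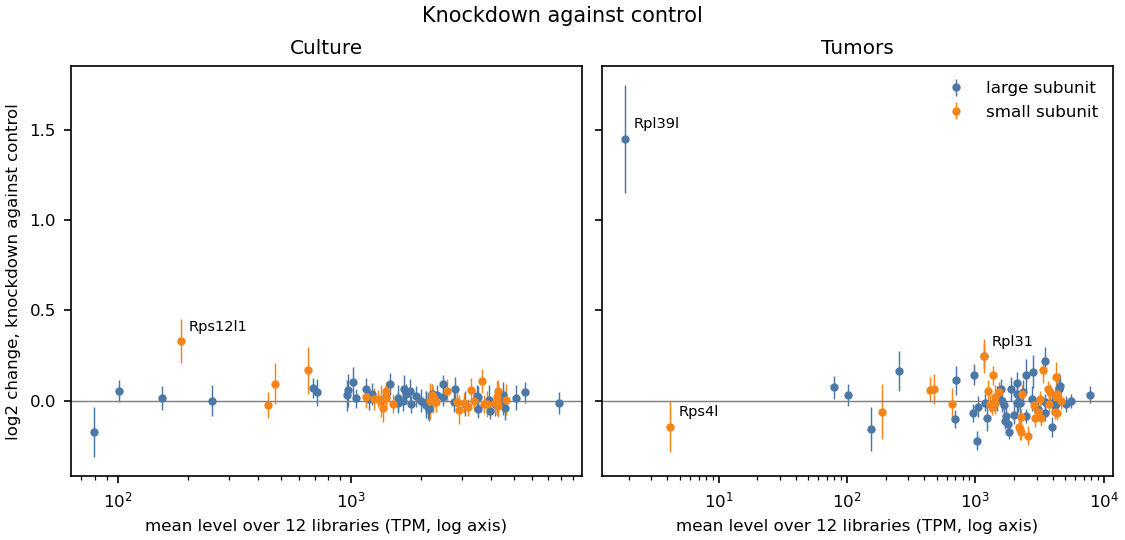
Log2 change of each member, knockdown against control, in culture (left, 82 members) and tumors (right, 84 members) against its mean level in TPM on a log axis, with bars for the standard error. All but Rps12l1 in culture and all but Rpl39l in tumors lie within 0.25 of 0, and no member passed the test.

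The knockdown effect in tumors was also set against that in culture. No member passed the test of this difference (0 of 84, with 0.766% of 15407 genes called), and 7 members had an unadjusted p below 0.05 (8.33%, against 11.1% of all genes). The smallest p values were those of Rpl39l, Rpl10 and Rps3, with log2 differences of 1.304 ± 0.350, -0.33 ± 0.10 and -0.25 ± 0.08. Rps3, at the message entry of the small subunit, was at 2845 to 3138 TPM with the control hairpin and 2562 to 2705 TPM with the knockdown in tumors. With copies added the value for Rpl10 was -0.12. Without knockdown tumor 1, Rpl39l passed this test at a log2 difference of 1.59 and an adjusted p of 0.0445. Its value depends on the pseudocount, since culture is at or near 0: with 0.1 in place of 1 it was 0.98, with an adjusted p of 0.649.

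Summed markers of other cell types were also compared between the tumor groups. No muscle, leukocyte or endothelial marker was called, of the 10, 9 and 7 tested. Of 9 fibroblast and matrix markers 1 was called, lower with the knockdown. The summed level of 12 skeletal muscle markers was 3.43, 17.7 and 4.48 TPM in control tumors, with 3 of 12 at a mean of 1 TPM, and was 110, 16.4 and 84.6 TPM in knockdown tumors, with 10 of 12. For 10 leukocyte markers it was 692 to 878 and 993 to 1141 TPM, for 9 fibroblast and matrix markers 1284 to 1744 and 920 to 1405 TPM, and for 7 endothelial markers 67.3 to 96.3 and 49.3 to 70.3 TPM. Of these lists, only the leukocyte sums had ranges that did not overlap. Epithelial and ovarian tumor markers summed to 3231 to 3437 TPM in control tumors and 2565 to 2831 TPM in knockdown tumors, also without overlap. Of 6 of them tested, 0 were called. Erythroid markers summed to 79.1 to 107 and 37.8 to 88.0 TPM, and these ranges overlapped. Knockdown tumors 1 and 3 held the most muscle RNA. Without them 1 knockdown tumor was left, and its log2 differences from the 3 control tumors were 1.84 for Rpl39l, -0.18 for Rpl3 and -0.17 for Rps6. These are values of a single library, with no replicate on its side and no test. The part of these markers in the differences was not tested.

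Tumors and culture differed far more. In control tumors against control culture 61 of 84 members were called, 36 higher (Rps4l and Rpl39l among them) and 25 lower, in a table where 63.8% of 14801 genes were called, 39.1% higher and 24.7% lower. In knockdown tumors against knockdown culture 52 members were called, 30 higher (Rps4l and Rpl39l again among them) and 22 lower. Over all 14852 genes 62.9% were called, 35.1% higher and 27.8% lower. The changes of members were smaller: the median size of the log2 change was 0.26 for members and 0.57 for all genes in the control comparison, and 0.23 and 0.57 in the knockdown comparison. Among genes at 100 TPM or more, 74.9% were called in control tumors, 30.4% higher and 44.6% lower, beside 58 of the 81 members at that level (71.6%), 34 higher (42%) and 24 lower (29.6%). In the knockdown comparison 75.5% of genes at that level were called, beside 49 of the 81 members (60.5%).

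Culture and tumor libraries were deposited in separately made tables, so tissue and table set cannot be told apart, and levels set across them are descriptive. In bulk samples fewer cells of a type and less RNA per cell cannot be told apart either. Transcripts of other cell types were higher in tumors: fibroblast and matrix markers summed to 920 to 1744 TPM in tumors and to at most 1.98 TPM in culture, and leukocyte markers to 692 to 1141 and at most 9.08 TPM. Epithelial and ovarian tumor markers summed to 2565 to 3437 TPM in tumors and 4567 to 5052 TPM in culture. Krt8, Krt18 and Krt19 made up most of that sum, while Epcam and Pax8 were below 1 TPM in all 12 libraries. Of 6 tested, 3 were called higher and 3 lower in each tumor comparison, with median log2 changes of 0.40 and 0.17. Msln was at 15.4 to 18.5 TPM in culture and 32.9 to 68.7 TPM in tumors. The part of all these markers in the changes below was not tested.

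The direction of the bulk of members depended on the scale. The median log2 change of all genes in the control comparison was 0.18 in the TPM scale and 0.06 with median-of-ratios scaling, which sets that middle near 0 in another way, and the members' median moved from 0.06 to -0.07. With it 15 members were called higher and 26 lower in control tumors, and 16 and 18 in knockdown tumors. Rps4l and Rpl39l are among those higher. The shares of all genes called with median-of-ratios scaling are not given here. Called in the same direction in both comparisons under all scalings run (median-of-ratios, quantile, total of other genes, genes of 200 bases or more) and with pseudogenes or copies added were 14 members higher and 12 lower, with Rps4l and Rpl39l, which had to differ, among the 14. They lead the account below, and the values of others are given beside them. No share over all genes is given for this rule.

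The 2 tumor comparisons share no library. Without Rps4l and Rpl39l their log2 changes correlated at 0.96 (Pearson) and 0.95 (Spearman) across 82 members, which share the table sets and the gene models, and genes are not independent replicates. The sign was the same in 74 of these 82, and the median size of the difference between the 2 changes was 0.06 on the log2 scale. Of the 64 members called in at least 1 comparison, 49 were called in both in the same direction, 29 higher and 20 lower, and 0 in opposite directions. The 29 include Rps4l and Rpl39l, which had to differ. Over all genes 63.8% and 62.9% were called in the 2 comparisons, and no share called in both is given here.

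**Figure D3:**
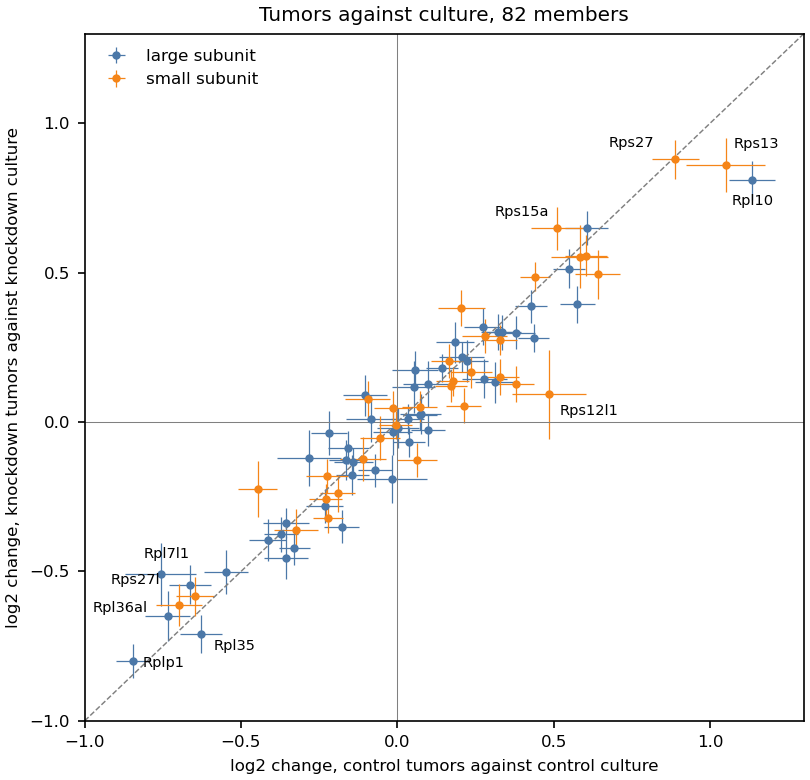
Log2 change of each member in control tumors against control culture (x axis) and in knockdown tumors against knockdown culture (y axis) for 82 members, with standard errors and the line of equal change dashed. Rps4l and Rpl39l, listed at 0 TPM in control culture, are left out. Members lie along the line from Rplp1 at -0.85 and -0.80 to Rps27 at 0.89 and 0.88 and Rpl10 at 1.14 and 0.81.

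Of the stalk proteins, Rplp1 was lower in tumors by the widest margin of all members. It was at 10540, 9771 and 9642 TPM in control culture and 9289, 9835 and 10538 TPM in knockdown culture. Tumors measured 5800, 5575 and 5405 TPM with the control hairpin and 5852, 5786 and 5530 TPM with the knockdown. No tumor library reached the lowest culture library, and the log2 changes were -0.85 ± 0.05 and -0.80 ± 0.06, with adjusted p of 5.61e-06 and 7.75e-06 in limma. Its share of all member TPM was 5.12 ± 0.131% in control culture and 2.78 ± 0.0350% in control tumors.

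Rplp0 was lower as well, at 4454 to 4598 TPM in control culture and 3495 to 3761 TPM in control tumors, with log2 changes of -0.33 ± 0.05 and -0.42 ± 0.06. Rplp2, which pairs with Rplp1 on the stalk, was at 1640 to 1758 and 1766 to 1847 TPM, with changes of 0.10 ± 0.05 and -0.03 ± 0.05 that did not pass. The stalk members thus had unequal changes.

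Further large subunit members that were lower were Rpl41, Rpl35, Rpl36al, Rpl30, Rpl37, Rpl8 and Rpl7l1. Rpl41, the shortest ribosomal protein, was at 6004, 5365 and 5451 TPM in control culture and 3728, 3637 and 3340 TPM in control tumors, and at 5141 to 5900 against 3558 to 3879 TPM in the knockdown libraries. Its groups did not overlap, and the log2 changes were -0.66 ± 0.07 and -0.54 ± 0.07. Rpl35, which lies at the exit of the peptide tunnel, was at 1672, 1703 and 1875 TPM against 1213, 1126 and 1084 TPM with the control hairpin. Its changes were -0.63 ± 0.07 and -0.71 ± 0.06, and its groups did not overlap. Rpl30 changed by -0.55 ± 0.07 and -0.50 ± 0.07, Rpl37 by -0.42 ± 0.06 and -0.39 ± 0.07, and Rpl8, near the peptidyl transferase center, by -0.37 ± 0.05 and -0.38 ± 0.06.

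Large subunit members that were higher included Rpl17, Rpl11, Rpl13a, Rpl3 and Rpl32. Rpl11, the Mdm2-binding protein, was at 1546, 1419 and 1436 TPM in control culture and 2182, 2249 and 2175 TPM in control tumors, and at 1432, 1513 and 1620 against 2068, 2059 and 1920 TPM in the knockdown libraries. No groups overlapped, and the log2 changes were 0.58 ± 0.06 and 0.39 ± 0.06. Its partner Rpl5 was listed at 96.5 to 104 TPM in culture and 96.7 to 108 TPM in tumors, with changes of 0.00 ± 0.07 and -0.02 ± 0.07, but most of its joint level was listed under copies, and with them it was called higher in control tumors at 0.17.

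Rpl13a, known outside the ribosome for silencing messages after interferon gamma, was at 4340, 3998 and 4057 TPM in control culture and 6118, 6182 and 5958 TPM in control tumors. In knockdown libraries it was at 3881, 4120 and 4539 against 6261, 5923 and 5840 TPM, and again the groups did not overlap. Its changes were 0.55 ± 0.05 and 0.51 ± 0.07. Rpl3 changed by 0.44 ± 0.05 and 0.28 ± 0.05, Rpl32 by 0.43 ± 0.05 and 0.39 ± 0.06, and Rpl17 by 0.61 ± 0.07 and 0.65 ± 0.06.

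In the small subunit 19 members were called higher and 8 lower in control tumors, and 14 and 7 in knockdown tumors. In the large subunit 17 and 17, and 16 and 15, were called. The higher ones include Rps4l in the small and Rpl39l in the large subunit, which had to differ. The median log2 change in control tumors was 0.17 for small and 0.02 for large subunit members. The counts moved with the setting, and no shares of all genes are given for the other settings. With copies added, 19 small subunit members were higher and 4 lower in control tumors, beside 21 and 11 of the large subunit, and the counts in knockdown tumors were 17 and 4 beside 21 and 13. With median-of-ratios scaling they were 8 and 8 beside 7 and 18 in control tumors, and 9 and 5 beside 7 and 13 in knockdown tumors. The difference between the subunits was not tested. Rps27, a zinc-finger protein, was at 3536, 2945 and 3252 TPM in control culture and 6199, 5725 and 6210 TPM in control tumors. Knockdown libraries measured 3046, 3151 and 3562 against 5907, 6063 and 6106 TPM. Without overlap, the changes were 0.89 ± 0.07 and 0.88 ± 0.06, with adjusted p of 2.41e-05 and 9.35e-06 in limma.

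Rps14, of the platform that binds the message, was higher by 0.60 ± 0.07 and 0.56 ± 0.07, and Rps15a by 0.51 ± 0.08 and 0.65 ± 0.07. Rps14 measured 2516, 2176 and 2377 TPM in control culture and 3469, 3745 and 3605 TPM in control tumors, without overlap. Rps12 was lower, at 4996, 4480 and 4531 TPM against 3145, 2947 and 2916 TPM with the control hairpin. Its changes were -0.65 ± 0.06 and -0.58 ± 0.06. Rps6 was higher in control tumors by 0.33 ± 0.06 and did not pass in knockdown tumors at 0.15 ± 0.06, and the difference between these values did not pass its test (adjusted p = 0.458 in limma). Copies held part of its joint level, and with them Rps6 was called higher in both comparisons, at 0.23 and 0.16.

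**Figure D4:**
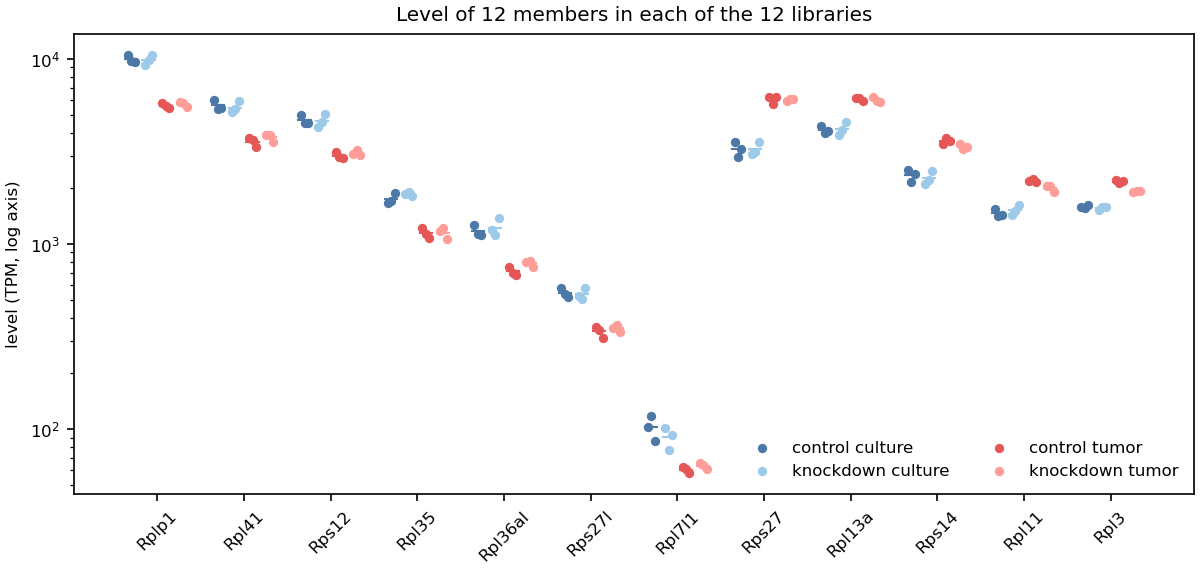
Level in TPM on a log axis of 12 members in each library, with points for libraries and lines for means of 3, coloured by group. The first 7 members are lower and the last 5 higher in all 6 tumor libraries than in all 6 culture libraries, as for Rps27 at 2945 to 3562 TPM in culture and 5725 to 6210 TPM in tumors.

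The paralogs Rps27l, Rpl36al, Rpl7l1 and Rpl22l1 were lower in control tumors than in control culture relative to their partners. Rps27l, a paralog of Rps27 that p53 can induce, was at 577, 536 and 519 TPM in control culture and 357, 344 and 312 TPM in control tumors. Its log2 changes were -0.70 ± 0.07 and -0.61 ± 0.07, and its level relative to Rps27 was 16.8 ± 1.20% in control culture and 16.4 ± 0.686% in knockdown culture, and 5.598 ± 0.513% and 5.84 ± 0.319% in tumors of these lines. All tumor libraries lay below all culture libraries. The coding sequences differ at 61 of 255 bases, and the stretch from position 4 to 63, counted from the first base of the start codon, shows how far reads can tell the pair apart, with differing bases in capitals.
Rps27: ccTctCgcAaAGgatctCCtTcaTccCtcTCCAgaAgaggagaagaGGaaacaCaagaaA
Rps27l: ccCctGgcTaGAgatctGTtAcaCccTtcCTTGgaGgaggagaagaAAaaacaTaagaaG

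Rpl36al, whose protein is nearly that of Rpl36a, was at 1273, 1138 and 1119 TPM in control culture and 754, 701 and 682 TPM in control tumors, with changes of -0.73 ± 0.07 and -0.65 ± 0.08. Rpl36a did not pass, at -0.08 ± 0.08 and 0.01 ± 0.08, but with copies it was called higher in knockdown tumors at 0.35. The ratio of Rpl36al to Rpl36a was 42.6 ± 2.88% in control culture, 42.4 ± 4.099% in knockdown culture, 27.1 ± 1.07% in control tumors and 26.8 ± 2.20% in knockdown tumors. Copies hold 42.5 to 56.9% of the joint level of Rpl36a. The pair differs at 39 of 321 coding bases, shown for positions 115 to 174 with differing bases in capitals.
Rpl36a: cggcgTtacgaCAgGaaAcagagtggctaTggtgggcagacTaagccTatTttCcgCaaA
Rpl36al: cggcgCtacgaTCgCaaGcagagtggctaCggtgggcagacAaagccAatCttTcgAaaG

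Rpl7l1 was at 103, 118 and 86.7 TPM in control culture and 62.3, 60.5 and 58.0 TPM in control tumors, and its changes were -0.76 ± 0.11 and -0.51 ± 0.11. Relative to Rpl7 it stood at 4.80 ± 0.858% in control culture and 2.42 ± 0.127% in control tumors. Rpl22l1, a paralog of the RNA-binding Rpl22, was at 24.0 ± 0.710% of Rpl22 in control culture and 16.4 ± 2.50% in control tumors, and its change of -0.28 ± 0.10 passed in the control comparison, while -0.12 ± 0.09 in the knockdown comparison did not.

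Rps12l1, Rps4l and Rpl39l went the other way. Rps12l1 was at 3.18 ± 0.446% of Rps12 in control culture and 4.04 ± 0.326% in knockdown culture, and at 6.95 ± 0.422% and 6.52 ± 1.18% in tumors of these lines, where all tumor libraries lay above all culture libraries. Its own change of 0.49 ± 0.12 passed in the control comparison (adjusted p = 0.0074 in limma), while 0.09 ± 0.15 in the knockdown comparison did not. The coding bases shared with Rps12 limit both values as in culture. Rps4l, a paralog of Rps4x, was at 0 TPM in all 6 culture libraries, at 7.13, 10.1 and 9.59 TPM in control tumors and at 7.09, 8.32 and 8.37 TPM in knockdown tumors. No fold is given against a group listed at 0. It made up 0.201 to 0.295% of the level of Rps4x, which lies on the X chromosome, in tumors, so it added little to the pair, and Rps4x changed by 0.33 ± 0.05 and 0.27 ± 0.05. Rpl39l, at 0.900 to 7.69 TPM in tumors, was 0.0517 to 0.409% of Rpl39. The pair differs at 23 of 156 coding bases, 13 of them in positions 94 to 153.
Rpl39: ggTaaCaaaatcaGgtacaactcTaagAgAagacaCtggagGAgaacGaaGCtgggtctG
Rpl39l: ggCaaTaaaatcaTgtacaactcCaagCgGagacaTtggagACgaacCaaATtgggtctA

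How firmly a change can be given to a member depends on its copies. A copy was taken as a transcript of a gene outside the members that holds at least 90% of a member's coding bases. It also had to have 1 exon or a length of at most 2 times the coding sequence, and was counted for 1 member only. In all, 871 copies were found for 76 members, 849 of them annotated as pseudogenes. Rps12l1, itself a member, is therefore not among the copies of Rps12. They held 4.83 to 5.33% of all TPM in culture and 5.82 to 6.23% in tumors. For 42 members the copies were under 1% of the joint level in every library, and for 31 they were over 10% in some library. The 42 include Rps12l1 and Rps4l, which had no coding sequence in the annotation used, so no copies were sought for them. Of these, Rps12l1 holds all coding bases of Rps12, another member. For 18 members the copies were over 50%, among them Rpl12 and Rpl5 at 95.2 to 97.0% and 95.5 to 96.6%. The pair of Rps13 and its copy Rps13-ps1, different at 2 of 456 coding bases, shows why few reads can decide between them. Positions 370 to 429 hold both differences, in capitals.
Rps13: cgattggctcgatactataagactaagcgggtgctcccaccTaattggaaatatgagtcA
Rps13-ps1: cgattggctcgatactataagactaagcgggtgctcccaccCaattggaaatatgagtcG

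Rps13 was listed at 501, 388 and 376 TPM in control culture and 776, 894 and 958 TPM in control tumors, a change of 1.05 ± 0.13. Its copies together were at 1140, 1175 and 1162 TPM and at 1134, 881 and 742 TPM in the same libraries, lower in each tumor. Summed, the change was 0.17 and still called. Rpl10, higher by 1.14 ± 0.07 and 0.81 ± 0.07 alone, was higher by 0.55 and 0.43 with copies and stayed called in both comparisons.

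For Rpl14, Rpl15, Rpl27a and Rps23 the call turned from lower to higher once copies were added, in both comparisons. Rpl14 was listed at 1166, 1070 and 1002 TPM in control culture and 875, 816 and 857 TPM in control tumors, without overlap. Its copy Rpl14-ps1 was listed at 737, 803 and 748 TPM and at 1554, 1509 and 1485 TPM, higher in every tumor. The change of Rpl14 was -0.36 ± 0.07 alone and 0.35 with the copy. Rps23, at the decoding center, changed by -0.23 ± 0.07 alone and 0.28 with its copies, which were at 2487 to 2804 TPM in control culture and 3561 to 3836 TPM in control tumors.

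Over all members, 40 were called higher and 15 lower in control tumors with copies added, and 38 and 17 in knockdown tumors. Rps4l and Rpl39l, which had to differ, are among those higher, and no share of all genes is given for these counts. The 42 members with copies under 1% kept all 30 calls in the control comparison, 19 higher and 11 lower, and had a median change of 0.07 both alone and with copies. Copies of that size can hardly move a value, so in both comparisons the kept calls follow from how the 42 were chosen. Among the 31 above 10%, 12 calls were the same in the control comparison, 4 turned and 8 were lost. In the knockdown comparison the 42 members kept all 26 calls and 1 more was called lower, and of the 31 the calls of 12 were the same, 4 turned and 3 were lost.

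**Figure D5:**
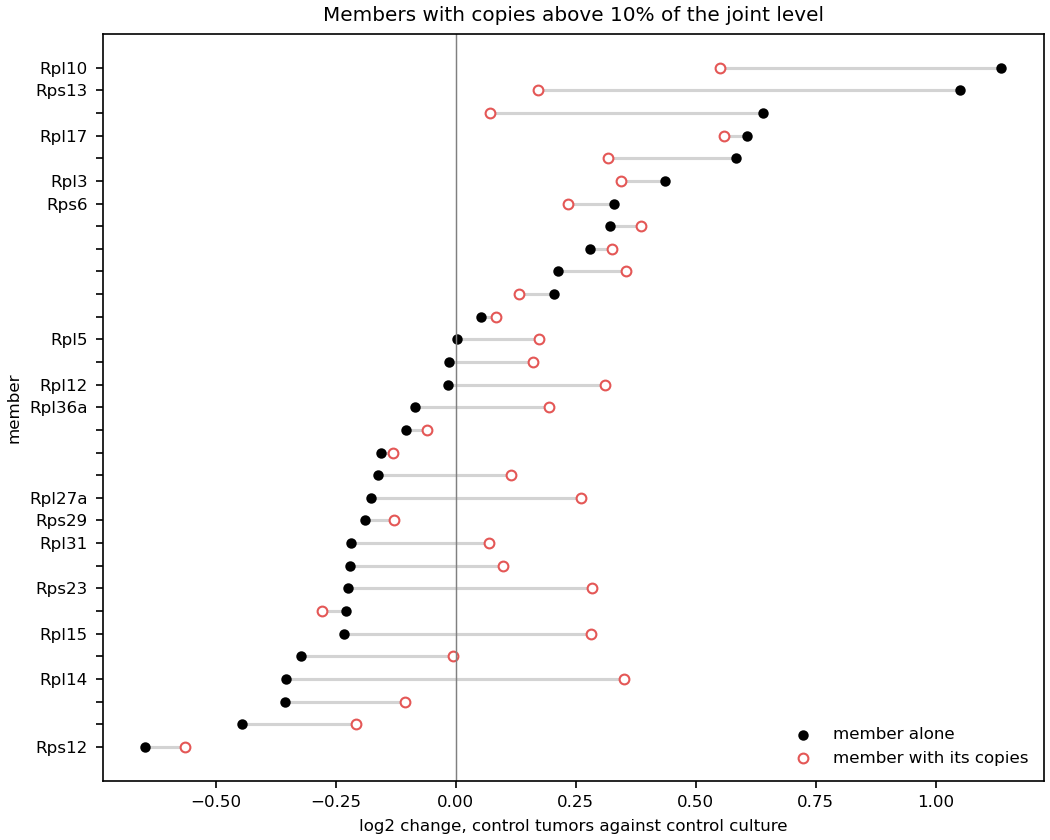
Log2 change in control tumors against control culture for the 31 members whose copies exceed 10% of the joint level in some library, for the member alone (filled) and with its copies (open). Members named in the text are labelled, and Rps13 moves from 1.05 to 0.17 and Rpl14 from -0.36 to 0.35.

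Genes of ribosome assembly were lower throughout. Of 30 listed genes of nucleolar ribosome assembly all 30 were lower in control tumors (median log2 change -1.19) and all 30 in knockdown tumors (-1.21), beside 24.7% and 27.8% of all genes. Nop56, of the particles that guide RNA methylation, was at 647 ± 66.8 TPM in control culture and 147 ± 8.57 TPM in control tumors, a change of -2.14 ± 0.09. Nhp2, of the particles that guide pseudouridylation, changed by -2.03 ± 0.11. Subunits and factors of RNA polymerase I, which transcribes ribosomal RNA, were lower in 11 of 13 tested (median -0.55), with Polr1e at -1.40 ± 0.12 and Polr1a at -1.09 ± 0.12.

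Genes of the mitochondrial ribosome, which shares its task but not its proteins, were lower in 64 of 78 and higher in 3 (median -0.54) in control tumors. Mrpl18 changed from 203 ± 6.64 to 64.2 ± 0.432 TPM. In knockdown tumors against control tumors 2 of the 78 were called, both higher: Mrpl55 at 0.40 ± 0.07 and Mrps18c at 0.47 ± 0.08. Of 19 genes for elongation factors and other TOP messages, 6 were higher and 4 lower in control tumors (median 0.08), beside 39.1% and 24.7% of all genes. Among the 4 were Npm1 at -1.48 ± 0.09 and the initiation factor subunit Eif3l at -0.90 ± 0.07. In knockdown tumors against knockdown culture 4 were higher and 7 lower (median -0.05), beside 35.1% and 27.8% of all genes. Of 15 genes of the mTORC1 pathway with Larp1 and Myc, 1 was higher and 5 lower in control tumors (median -0.17), among them Myc at -0.71 ± 0.07 and Larp1 at -0.64 ± 0.10. In knockdown tumors against knockdown culture 0 were higher and 7 lower (median -0.34). The shares of all genes are those given above.

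Ribosomal proteins outside the name rule moved both ways. Fau, which encodes a small subunit protein fused to a ubiquitin-like domain, was higher at 0.35 ± 0.06. Rack1, a scaffold on the small subunit head, was lower at -0.26 ± 0.06. Neither was called between knockdown and control tumors, where their changes were 0.02 and -0.02.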

How the data were processed

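RNA sequencing of 12 libraries was used. The authors deposited 1 table per library with gene identifier, name, listed length (in bases, another measure) and TPM, per the file headers; each sums to 1000000. Per the submitters' processing notes, HISAT, RSEM and fastp were used with build GRCm39. Their settings are not stated there. RSEM divides reads between similar transcripts. No source says whether strand was used. TPM leaves depth unknown, so no counting intervals were computed.

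Members, lists and tests were chosen with earlier results of these data known. Changes are from limma 3.58.1 (R 4.3.3, trended and robust) on log2(TPM + 1) for genes that averaged 1 TPM or more in some group, two-sided, called at a Benjamini-Hochberg adjusted p below 0.05 over all genes tested. Knockdown fits used the 6 libraries of a tissue. Tumor and culture fits used the 55416 shared identifiers, rescaled to 1000000, 6 libraries each, and the difference used all 12. Levels of members and copies are as deposited. Members were named by fixed rules: paralog pairs, up to 4 called members of largest change per comparison and direction (or the 3 of smallest p where under 3 were called), the 3 highest and lowest, the stalk proteins, Rpsa, Rpl5, Rpl11, the names under the level, and up to 2 genes of smallest p per list. Members held in every scaling, and those named for their copies, were chosen after their values were seen. Some items that the rules name are not reported here.

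Copies were found with blastn 2.17.0 between coding sequences and transcripts of GENCODE M21 (GRCm38), matched by gene identifier. Promoters were matched by symbol to RefSeq. Simulated data had 200 changed genes among 13492 to 15407 in all. Over the 5 comparisons, 23 to 44% of genes changed by 0.5 on the log2 scale and 74 to 86% of those changed by 1 were recovered. There were 3 to 7 false calls among the unchanged genes. The changed genes were drawn from abundant genes of any kind. Median standard errors of members were smaller than those of all genes, so these shares are not those of members.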

Additional observations from a re-analysis of the deposited data

How the results depend on the processing

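TPM keeps no depth, so the precision rests on 3 libraries per group. No member passed for the knockdown in culture under any alternative run. In tumors array weights gave 2 members higher (Rpl39l, Rpl31) and 3 lower (Rpl10, Rps3, Rpl3), and a fit of all 4 groups 1 higher (Rpl39l, adjusted p = 0.00764) and 1 lower (Rpl3). For the difference between tissues, array weights gave 1 lower (Rpl10), and leaving out 1 library gave 0 to 1 higher. In control tumors against control culture, leaving out 1 library gave 29 to 36 members higher and 19 to 27 lower, and in knockdown tumors against knockdown culture 25 to 35 and 19 to 23. Median-of-ratios scaling gave 15 and 16 higher. Near-identical copies, added after seeing the data, gave 15 lower in control tumors. A minimum log2 change of 0.5, also added later, left 5 higher and 3 lower, and 5 and 2. Rps4l and Rpl39l, which had to differ, were not left out of these counts, and no share over all genes is given beside them. With copies the members' sum was 24.57% and 24.65% of all TPM in control and knockdown culture and 26.16% and 26.02% in control and knockdown tumors. Of the other results and settings, the 203 remaining counts and sums kept within 1.5 times or 1 SD. No member named by rule changed sign, while Rpl14, Rpl15, Rpl27a and Rps23 turned from lower to higher with copies.

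Same-numbered libraries did not deviate together, with correlations of -0.154 to 0.0469 over 18 pairs, so the numbers were not taken to pair samples. With the number as a replicate block, 0 members passed for either knockdown comparison and the difference, 36 were higher and 25 lower in control tumors, and 27 and 19 in knockdown tumors. The cause of these shifts was not tested.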
